A study of Schizosaccharomyces pombe with 2 samples.

Results

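The genes described here serve 3 vitamins in fission yeast, Schizosaccharomyces pombe. They are the biotin genes vht1 and bio2, the pyridoxine (vitamin B6) genes snz1, sno1 and bsu1, and the thiamine genes nmt1, thi2, thi4 and thi9. The 9 genes were chosen by name, by matching the gene name of each array spot to the gene's systematic or current name, out of 5006 gene probe names on the array. The list itself was drawn up with earlier results of these data known. Spots were found for 8 of the 9, and 7 had signal above the level of negative control spots and were tested. The biotin transporter vht1 is listed on the array as SPAC1B3.16c, snz1 as SPAC29B12.04, sno1 as SPAC222.08c, thi9 as SPAC9.10 and nmt1 under its other name thi3.

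A total of 2 spotted arrays were hybridised, each with RNA of 2 cultures in 2 colours. The culture under test was a wild-type strain with the plasmid pDUAL-Ssn6, which expresses Ssn6, a subunit of the Ssn6-Tup transcriptional corepressor. The control culture was a wild-type strain with the empty plasmid, pDUAL-empty. Both grew in minimal medium without uracil (MM-URA), which selects for the plasmid. The sources used here do not give the promoter that drives Ssn6, the further genotype of the strain or the vitamin content of the medium. The labels do not say that the RNAs of the arrays came from separate cultures, so the spread behind the p-values is that of 2 arrays and may be technical.

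Biotin, vitamin B6 and thiamine are precursors of enzyme cofactors. Biotin is attached to carboxylases, pyridoxal phosphate serves transaminases and many other enzymes of amino acid metabolism, and thiamine pyrophosphate serves enzymes that cleave or transfer carbon units next to a carbonyl group. Yeasts take up each vitamin through transporters in the plasma membrane, and fission yeast can make vitamin B6 and thiamine itself. In fission yeast nmt1, thi2, thi4 and thi9 are known as genes that thiamine represses, and the nmt1 promoter is widely used to drive genes from plasmids.

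Each array compared the cultures in file channels called B and A, without a dye or culture name. The ssn6 probe was brighter in channel B at all 4 of its spots, by 6.16-fold to 8.86-fold. On array 1 both spots carried a flag other than the common flag C in 1 channel. They covered 69 and 68 pixels, against a median gene spot of 85. After normalization its log2 ratio was 2.04 ± 0.19 (SD, n = 2, adjusted p = 6.07e-05). Channel B is therefore likely the Ssn6 culture on both arrays, and channel A the control. The uracil synthesis gene ura4 also differed between the channels, with a log2 ratio of -1.85 ± 0.11 (adjusted p = 9.26e-05). The labels describe a dye swap, with the Ssn6 culture in Cy3 on array 1 and in Cy5 on array 2. With 1 dye per channel throughout, that swap would give opposite signs on the arrays. The arrays instead ran the same way, with Pearson r = 0.807 across 4854 genes, which are not independent replicates. Ratios below are those of channel B to channel A. If channel B held the Ssn6 culture and the labelled dyes are right, each culture was in each dye once and a dye bias would cancel in the mean. If channel B was 1 dye throughout, it would not, and the sources used here do not settle this. The median gene signal was 82.9 ku in channel B and 77.0 ku in channel A on array 1, and 90.3 and 76.9 ku on array 2, where 1 ku is 1000 scanner units.

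The biotin genes were lower in channel B, vht1 by far the more. The vht1 gene encodes the plasma membrane symporter that brings biotin into the cell with protons. Its spots on array 1 had signals of 649 and 687 ku in channel B, against 2664 and 3122 ku in channel A. On array 2 they had 421 and 532 ku in channel B, against 2519 and 2758 ku in channel A. At each of the 4 spots channel B was the dimmer, by 4.1-fold to 5.99-fold. No vht1 spot held saturated pixels. After loess, which subtracts the ratio typical of genes of the same brightness, the log2 ratio of vht1 was -3.38 on array 1 and -3.40 on array 2. The mean was -3.39 ± 0.01 (SD, n = 2, adjusted p = 4.09e-06), 10.4-fold lower in channel B after loess, and vht1 ranked 17 from the lowest among the 4854 genes tested. Part of this ratio rests on the normalization, since before it the mean log2 ratios of vht1 were -2.11 and -2.48. The small SD comes from the close agreement of 2 array means. Single spots ran from -3.27 to -3.48, and the 95% interval of the limma fit was -3.75 to -3.02.

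The bio2 gene encodes biotin synthase, an iron-sulfur enzyme that forms biotin from dethiobiotin. Its spots had 369 and 307 ku in channel B, against 379 and 441 ku in channel A, on array 1. They had 287 and 298 ku in channel B, against 442 and 395 ku in channel A, on array 2. Channel B was the dimmer at all 4 spots, by as little as 1.03-fold at the first spot of array 1 and by up to 1.54-fold on array 2. The normalized log2 ratio was -0.76 on array 1 and -0.95 on array 2, a mean of -0.86 ± 0.14 (adjusted p = 0.00533), or 1.81-fold lower in channel B. Much of this ratio rests on the normalization, since before it the mean log2 ratios of bio2 were -0.28 and -0.52.

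**Figure D1:**
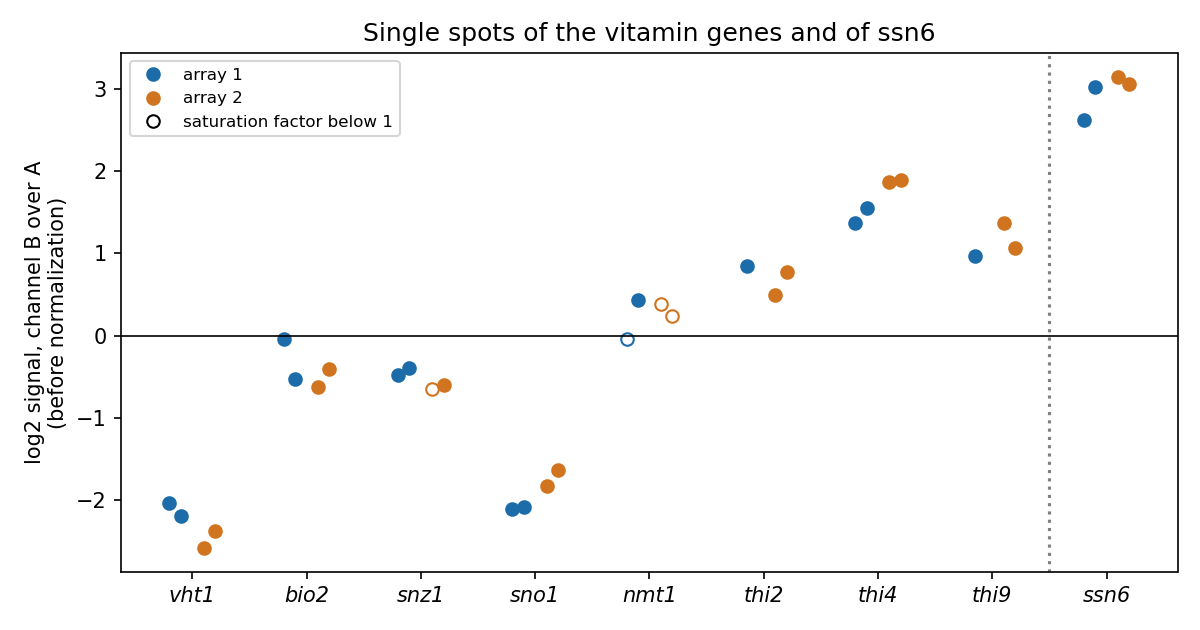
Log2 of the signal in channel B (likely the Ssn6 culture) over that in channel A (likely the empty plasmid) at each single spot before normalization, for the 8 vitamin genes with spots and for ssn6. Blue points are array 1 and orange points array 2, and open points are spots with a saturation factor below 1. The spots of vht1 and sno1 lie at -1.64 or lower on both arrays, those of thi4 at 1.37 or higher, and 3 of the 4 nmt1 spots are open.

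The genes of vitamin B6 synthesis were also lower in channel B. As known from their budding yeast counterparts, the proteins Snz1 and Sno1 together form pyridoxal phosphate synthase, in which Sno1 is the glutaminase that supplies ammonia and Snz1 the subunit that builds the ring. At the sno1 spots of array 1 the signals were 159 and 258 ku in channel B, against 683 and 1088 ku in channel A. On array 2 they were 344 and 274 ku in channel B, against 1217 and 852 ku in channel A. Duplicate spots of sno1 differed in brightness, but channel B was dimmer by 3.11-fold to 4.29-fold at each of them. Its normalized log2 ratio was -2.65 on array 1 and -2.36 on array 2, with a mean of -2.50 ± 0.20 (adjusted p = 2.19e-05), or 5.68-fold lower in channel B. Before normalization the mean log2 ratios of sno1 were -2.09 and -1.73.

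The snz1 spots were bright in both channels. They had 2080 and 2470 ku in channel B, against 2889 and 3254 ku in channel A, on array 1. On array 2 they had 1733 and 2289 ku in channel B, against 2720 and 3472 ku in channel A. Channel B was the dimmer at all 4 spots, by 1.32-fold to 1.57-fold, a smaller difference within the spots than at sno1. At snz1, 1 spot on array 2 had a saturation factor of 0.602, where 1 is the value of nearly all spots. The normalized log2 ratio was -2.08 on array 1 and -1.87 on array 2, with a mean of -1.97 ± 0.15 (adjusted p = 6.8e-05). This ratio rests largely on the normalization, since before it the mean log2 ratios were -0.44 and -0.63. At the brightness of snz1 the loess curve stood at 1.64 on array 1 and 1.25 on array 2.

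No spot carried bsu1, the gene of the plasma membrane pyridoxine transporter, under its systematic or current name. A probe named car1 cannot be assigned, because car1 is an older name of bsu1 and also the current name of another gene. Its signals averaged 1086 ku in channel B against 1261 ku in channel A on array 1, and 1548 ku in channel B against 1624 ku in channel A on array 2. The channels differed little within its spots, and its normalized log2 ratio was -1.26 ± 0.18 (adjusted p = 0.000794). With each array centred on its median in place of loess it was -0.37 (adjusted p = 0.114).

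None of the thiamine genes tested was lower in channel B. Of the 3, 1 was higher and 2 did not pass, where over all genes 11.5% were higher and 16.7% lower. A count over 3 genes, 1 of them (nmt1) limited by saturation, cannot set them apart from such shares. The thi4 gene encodes the enzyme that joins the thiazole and pyrimidine rings of thiamine. Its spots had 566 and 733 ku in channel B, against 219 and 251 ku in channel A, on array 1. On array 2 they had 1310 and 1020 ku in channel B, against 360 and 275 ku in channel A. Channel B was the brighter at all 4 spots, by 2.58-fold to 3.71-fold, and no spot held saturated pixels. The log2 ratio was 0.95 on array 1 and 1.21 on array 2, with a mean of 1.08 ± 0.18 (adjusted p = 0.00175), or 2.12-fold higher in channel B.

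The thi9 gene encodes the thiamine transporter of the plasma membrane. On array 1 only 1 of its spots gave a signal, with 808 ku in channel B against 414 ku in channel A. On array 2 its spots had 962 and 1117 ku in channel B, against 373 and 535 ku in channel A. Channel B was 1.95-fold to 2.58-fold the brighter at these 3 spots before normalization. The spot at 2.58-fold, on array 2, carried a flag other than the common flag C in channel A. After loess the log2 ratio was 0.21 on array 1 and 0.50 on array 2, and the mean of 0.35 ± 0.20 did not pass (adjusted p = 0.148, 95% interval -0.03 to 0.74). With median centring in place of loess it was 0.86 and passed (adjusted p = 0.00319).

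The nmt1 gene encodes the enzyme that makes the pyrimidine ring of thiamine, and most of its spots held saturated pixels. On array 1 its spots had 201 and 38.0 ku in channel B, against 207 and 28.0 ku in channel A, so that the duplicates differed several-fold in brightness. On array 2 they had 688 and 651 ku in channel B, against 526 and 552 ku in channel A. The saturation factor was 0.0465 at the brighter spot of array 1 and 0.179 and 0.136 on array 2. Among gene spots with a factor under 0.2, of which array 1 had 42 and array 2 had 25, the brighter channel had a median signal of 4.62 and 5.10 ku per pixel. Divided by the factor, that median was 51.1 and 45.1 ku, and the highest such value of any of these spots was 59.9 and 62.3 ku.

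The nmt1 spots with a low factor came to 50.3 ku per pixel in channel B and 51.6 in channel A on array 1 after this division. On array 2 they came to 45.9 and 59.1 ku in channel B, against 35.1 and 50.2 ku in channel A. The sources used here do not give the formula of the factor. The normalized log2 ratio of nmt1 was -0.01 on array 1 and -0.35 on array 2, with a mean of -0.18 ± 0.24 (adjusted p = 0.463, 95% interval -0.57 to 0.21). The single spot without saturated pixels, on array 1, had a normalized log2 ratio of 0.30, opposite in sign to the mean. That spot was dim, with 0.45 ku per pixel in channel B and 0.33 in channel A. Its signals of 38.01 and 28.05 ku were not far above the 95th percentile of negative controls (21.25 and 22.13 ku). The array 1 value averages it with the saturated spot, which had -0.31, so neither spot gives a firm ratio. The mean turned to 0.03 with median centring, and without saturated spots array 2 gave no value.

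The thi2 gene encodes the enzyme that forms the thiazole ring of thiamine. Its probe was close to the negative controls, whose 95th percentile was 21.3 ku in channel B and 22.1 ku in channel A on array 1, and 18.2 and 17.9 ku on array 2. On array 1 only 1 thi2 spot gave a signal, with 22.1 ku in channel B against 12.2 ku in channel A. On array 2 the spots had 16.2 and 5.81 ku in channel B, against 11.5 and 3.38 ku in channel A, and were not well above background. The spots covered 54 pixels on array 1, and 49 and 20 on array 2, against a median gene spot of 85 and 82 pixels. No ratio of thi2 is given for this reason. A second probe, which the files call thi2Missing, gave a signal at 1 spot, with 2.05 ku in channel B against 1.18 ku in channel A.

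**Figure D2:**
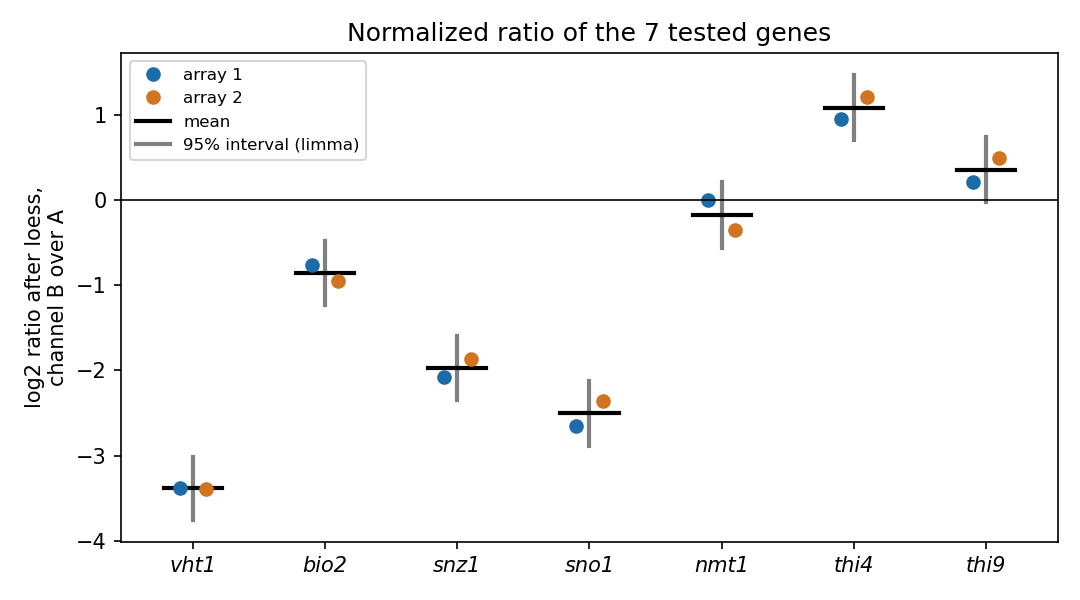
Normalized log2 ratio, B over A, for the 7 tested genes. Blue and orange points are arrays 1 and 2, black bars the mean, and grey lines the 95% interval of the limma fit. The intervals of vht1, bio2, snz1 and sno1 lie below 0, that of thi4 above 0, and those of nmt1 and thi9 include 0.

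Of the 7 genes tested, 4 were lower in channel B, 1 was higher and 2 did not pass. Over all 4854 genes 28.3% passed, 11.5% higher and 16.7% lower in channel B, so single members past the threshold are common on these arrays. The median log2 ratio of the 7 genes was -0.86, against 0.01 over all genes tested. As the members were chosen with earlier results of these data known, these counts and medians only describe them. Both biotin genes and both tested vitamin B6 genes were lower, and none of the tested thiamine genes was. Among the latter, the ratio of nmt1 is limited by saturated pixels at most of its spots. In order of ratio, vht1 was lowest of the 7 genes, followed by sno1, snz1, bio2, nmt1, thi9 and thi4. Neighbours in this order often had overlapping 95% intervals. Those of sno1 (-2.89 to -2.12) and snz1 (-2.35 to -1.60) overlapped, although their array values did not. Those of bio2 and nmt1, of nmt1 and thi9, and of thi9 and thi4 overlapped too. After loess the intervals of vht1 and sno1, and of snz1 and bio2, did not overlap. These gaps were narrower under other normalizations, with -2.85 for vht1 and -2.75 for sno1 under loess per printed block, and -0.76 for snz1 and -0.63 for bio2 under median centring.

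**Figure D3:**
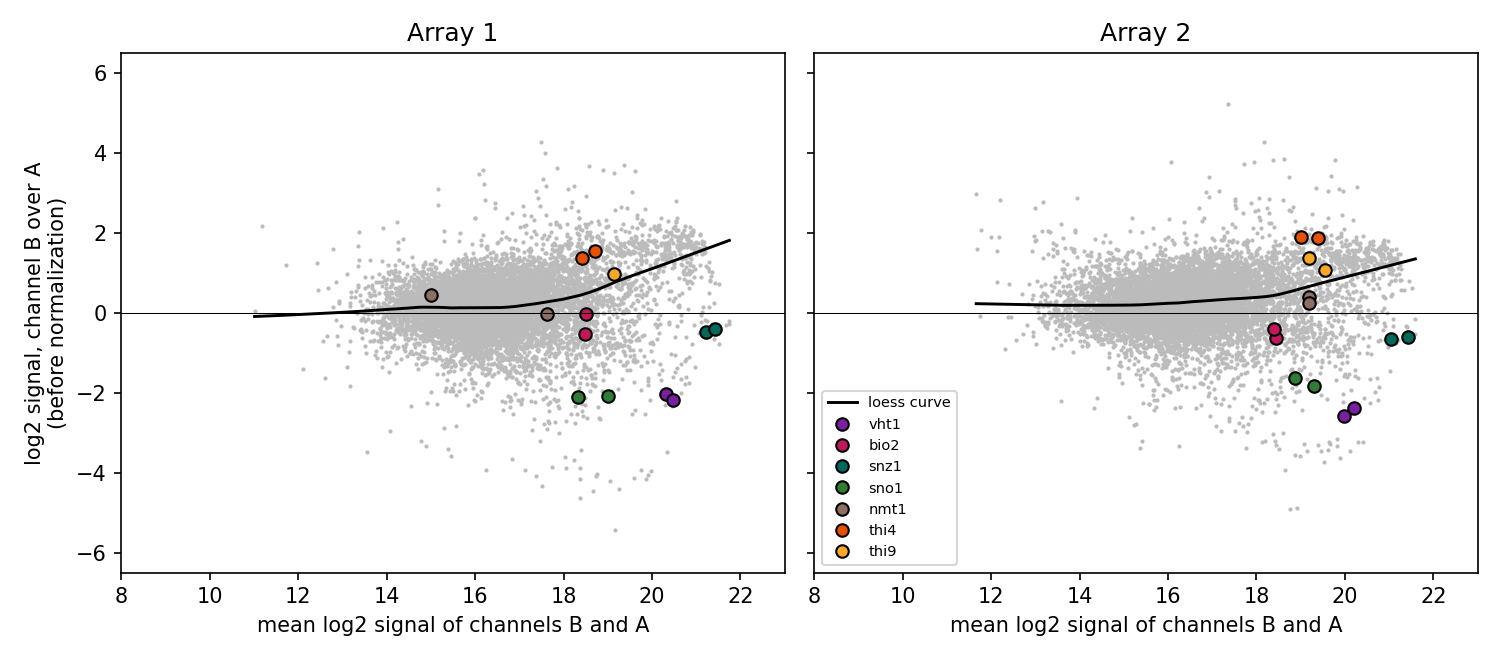
Log2 ratio, B over A, before normalization against the mean log2 signal of both channels, for all gene spots with signal (grey), with the loess curve (black) and the spots of the 7 tested genes in colour. The curve climbs to 1.81 on array 1 and 1.35 on array 2 at the brightest spots, and the vht1, sno1 and snz1 spots lie below it on both arrays.

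Bright genes were on average brighter in channel B than in channel A on both arrays, so loess moved the ratios of bright members downward. Whether this slope is a bias of the dyes or a difference between the cultures was not tested, and loess subtracts either. The size of the loess ratios of bright members depends on that step. The loess curve stood at 0.13 on array 1 and 0.26 on array 2 at the median signal, and reached 1.81 and 1.35 at the brightest spots. At vht1 it stood at 1.26 and 0.92, at sno1 at 0.56 and 0.63, and at bio2 at 0.48 and 0.44. Every one of these genes was already dimmer in channel B before the curve was subtracted. With median centring in place of loess, vht1 had a log2 ratio of -2.52, sno1 -2.14, snz1 -0.76, bio2 -0.63 and thi4 1.44, and each passed. With a separate loess for each of the 48 printed blocks the ratios were -2.85 for vht1, -2.75 for sno1, -1.47 for snz1, -0.73 for bio2 and 0.83 for thi4, and each passed. In the authors' deposited table, which holds 1 usable spot per array for most genes, vht1 had -3.02, sno1 -2.28, snz1 -1.51, bio2 -0.58 and thi4 1.30. None of these passed on the values of the authors' deposited table in limma, where 0 of 4811 genes passed and 1784 had an unadjusted p under 0.05.

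**Figure D4:**
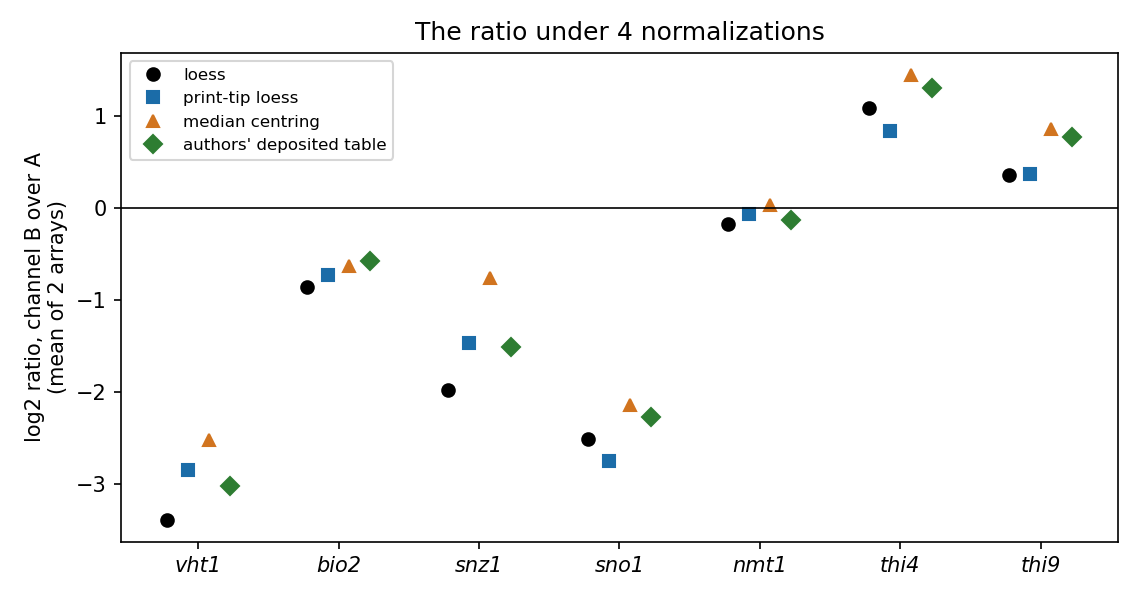
Mean log2 ratio (B over A, 2 arrays) for the 7 tested genes under loess (black circles), loess per printed block (blue squares), median centring (orange triangles) and in the authors' deposited table (green diamonds). The sign is the same under all 4 for each gene but nmt1, and snz1 moves most, between -1.97 and -0.76.

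Other genes of these pathways moved in both directions. There were 23 such genes tested, of which 7 were lower in channel B, 4 were higher and 12 missed the threshold. Their median log2 ratio was -0.26. With loess 28.3% of all genes passed, 11.5% higher and 16.7% lower. With median centring in place of loess the balance of the 23 genes turned, with 6 higher and 4 lower. The whole array shifted the same way, with 762 genes higher and 836 lower. Of all genes that passed, 47.7% were then higher, against 40.7% with loess. The list holds enzymes that carry the cofactors, enzymes that interconvert them and regulators, and it also holds gti1, a gene named for gluconate transport. Leaving out gti1, which was decided with the data in view, 22 genes remain, 4 of them higher and 7 lower.

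Among the genes of biotin use, the pyruvate carboxylase gene pyr1 was lower in channel B, with log2 ratios of -1.71 and -0.99 on arrays 1 and 2 (mean -1.35 ± 0.52, adjusted p = 0.00154). Its value was -0.71 with median centring. The acetyl-CoA carboxylase gene cut6 had -0.29 on array 1 and 0.73 on array 2, opposite signs, and did not pass (adjusted p = 0.516). The biotin-protein ligase gene bpl1, whose product attaches biotin to these carboxylases, had 0.30 and 0.27 and did not pass (adjusted p = 0.221).

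Of the vitamin B6 enzymes outside the synthase, plr1 was higher in channel B, unlike snz1 and sno1. It encodes a pyridoxal reductase, and its log2 ratio was 1.14 on array 1 and 1.51 on array 2 (mean 1.32 ± 0.26, adjusted p = 0.000745). The pyridoxamine phosphate oxidase gene pdx3 had -0.43 and -0.23 and did not pass (adjusted p = 0.165). SPAC6F6.11c had -0.66 and -0.25 and did not pass either (adjusted p = 0.0817), while it passed with loess per printed block (-0.55, adjusted p = 0.0425).

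Among 8 genes listed with thiamine regulation, phosphatase and other enzymes, 1 was higher and 2 were lower, again beside 28.3% of all genes. Higher was tnr3, the gene of thiamine pyrophosphokinase, which turns thiamine into its active form (0.80 on each array, adjusted p = 0.00662). The transcription factor gene thi5 was lower, with -0.96 and -0.73 (mean -0.85 ± 0.16, adjusted p = 0.00581). The gene of the other transcription factor of this pathway, thi1, had -0.25 and -0.27 and did not pass (adjusted p = 0.256). The thiamine-repressible acid phosphatase gene pho4 had -0.67 and -0.87 (mean -0.77 ± 0.15, adjusted p = 0.00899), but 0.05 with loess per printed block and -0.03 with median centring, where it did not pass. The call of pho4 therefore held only under part of the normalizations.

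Enzymes that use thiamine pyrophosphate were 2 higher, 4 lower and 3 that did not pass, out of 9, set against the 28.3% of all genes that passed. The pyruvate decarboxylase genes went both ways. Higher in channel B were pdc101 (2.13 ± 0.31, adjusted p = 6.75e-05), with saturated pixels at all 4 spots, and pdc102 (1.08 ± 0.42, adjusted p = 0.00346). Lower was pdc201 (-2.32 ± 0.25, adjusted p = 3.51e-05). The acetolactate synthase gene ilv1, of branched-chain amino acid synthesis, was lower (-1.84 ± 0.46, adjusted p = 0.000253). The pyruvate dehydrogenase subunit genes pda1 (-1.40 ± 0.23, adjusted p = 0.000492) and pdb1 (-0.80 ± 0.32, adjusted p = 0.0109) were lower too, but with median centring they had -0.47 (adjusted p = 0.0528) and -0.18 (adjusted p = 0.454).

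**Figure D5:**
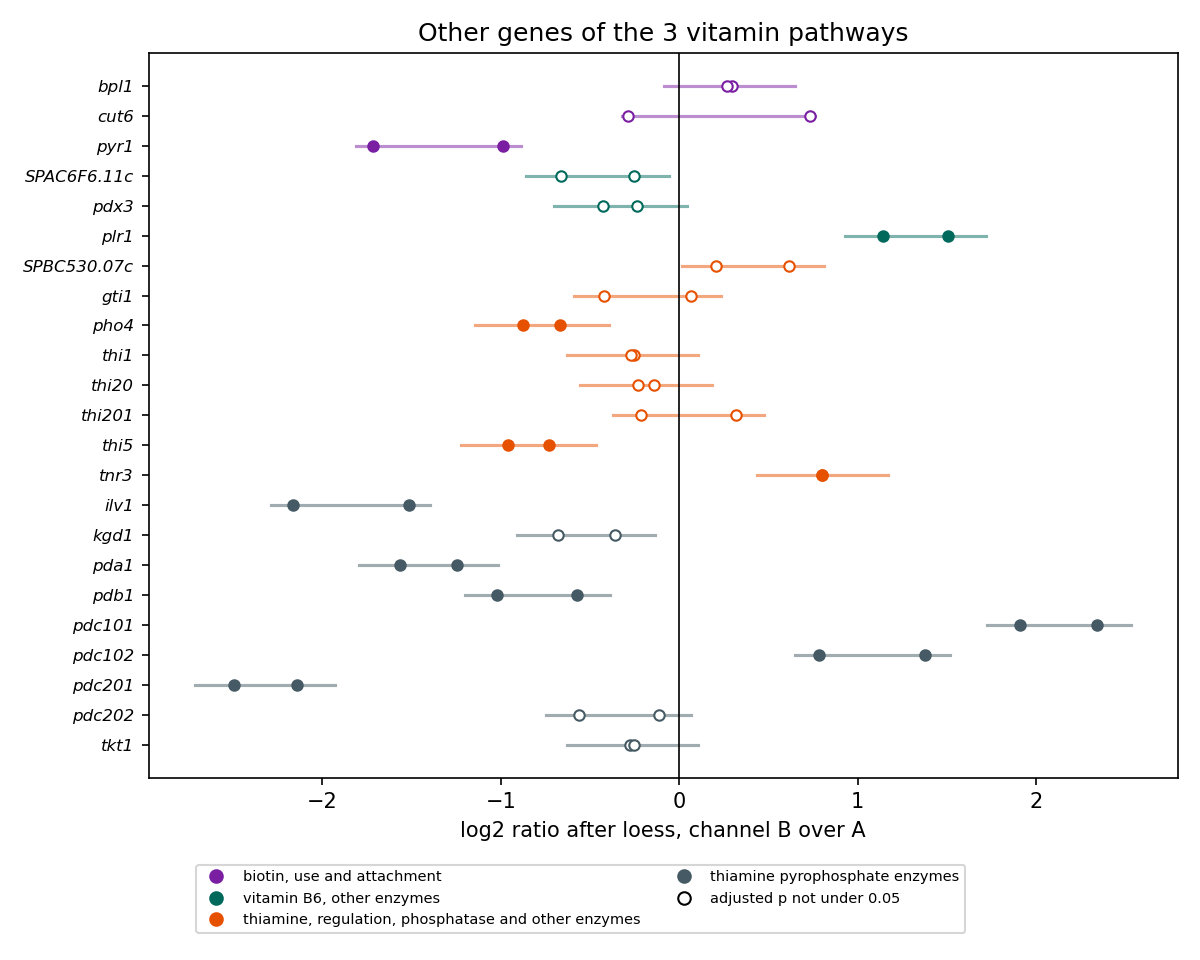
Normalized log2 ratio, B over A, for the 23 other genes of the vitamin pathways, coloured by list. Points are the 2 arrays, lines the 95% interval of the limma fit, and open points genes that did not pass. The pyruvate decarboxylase genes pdc101 and pdc201 lie at 2.13 and -2.32, on opposite sides of 0.

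The genes next to the members on the chromosomes passed about as often as genes did over the whole array. In budding yeast the SNZ and SNO genes lie side by side. In the reference gene table snz1 and sno1 were not neighbours. Of 18 protein-coding genes that flank the 9 members, 16 were tested and 4 passed (28.3% of all genes did), 2 higher and 2 lower in channel B. The pair with the closest values was thi4 and its neighbour cdb4, at 0.95 and 1.21 for thi4 and 0.98 and 1.10 for cdb4 on arrays 1 and 2 (cdb4: adjusted p = 0.00182). The neighbour of snz1, spd1, an inhibitor of ribonucleotide reductase, was lower at -1.23 and -1.04 (adjusted p = 0.00128). The other neighbours that passed flank thi2, for which no ratio is given, and went opposite ways. They were tda1, with -1.31 and -1.36 (adjusted p = 0.000482), and sec9, with 0.66 and 0.41 (adjusted p = 0.0421). The neighbours of vht1 did not pass, with -0.08 for SPAC1B3.15c and 0.51 for clr2 (adjusted p = 0.749 and 0.0541), and neither did those of sno1.

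By the distance between their ratios on the 2 arrays, the genes most like vht1 were leu3, with -3.57 and -3.31, Tf2-12, with -3.62 and -3.76, and asn1, with -3.33 and -2.96. The distance was 0.21 for leu3 and 0.44 for Tf2-12 and asn1. Those most like thi4 were dys1, with 0.98 and 1.21, asc1, with 0.98 and 1.24, and rot1, with 0.93 and 1.13, at distances of 0.03 to 0.09. The likeness covers 2 arrays of 1 comparison.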

How the data were processed

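The deposited scanner files give, per the file headers, each spot's intensity in channels A and B, already corrected for background, the linear ratio of the channels, a saturation factor (a fraction from 0 to 1) and flags. The authors' deposited value table holds log10 ratios, lowess-normalized per the series' design text. Set against the scanner files, its first 5760 rows ran with log10 of the B to A ratio (r = 0.913 and 0.939 on arrays 1 and 2) and the rest did not (r = 0.0355 and 0.0566). Only those first rows were used. Scale and direction were inferred from this match, each column's median was 0.01, and any centring is unknown. The sources used here do not name the scanner software or array annotation.

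From the scanner files, 50 was added to each intensity, log2 ratios were normalized by loess (span 0.3, control spots without weight) and spots were averaged per probe. Of 5006 probe names, 152 were left out for lack of signal or a mean below the 95th percentile of 822 negative control spots (in channel B and channel A alike, on at least 1 array). Spots with saturated pixels were kept. The ASM294v3 gene list matched 4776 of the names and was used for names and neighbours only. It holds no product text, so the list of other genes rests on names alone, and 1 listed name had no match. The mean of the arrays was tested against 0 with limma 3.58.1 (R 4.3.3, package data.table version 1.17.8), two-sided, with Benjamini-Hochberg adjustment over 4854 genes and a threshold of 0.05. The fit had 1 residual and 7.59 prior degrees of freedom, and the number of arrays limits the precision. All 9 members and up to 16 other vitamin genes are named, and members and lists were chosen with earlier results of these data known. Alternatives changed the normalization, offset, filter, spots, direction and values. No sequences were used here.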

Additional observations from a re-analysis of the deposited data

How the results depend on the processing

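Offsets of 0 and 200, no filter on dim probes, the spots' median ratios, leaving out saturated spots or spots not flagged C, and leaving out either array kept the direction of every tested member that had a value, and those with a test also its side of the threshold. Without the filter on dim probes thi2 entered the test too and passed, higher in channel B. Of 8 members 6 then passed, 2 higher and 4 lower, where 1286 of 5001 genes passed. The thi2 spots were close to the negative controls, so this call carries little weight. Median centring and loess per printed block changed single results. The sign of nmt1 turned to 0.026 with median centring, that of pho4 to 0.048 with loess per printed block, and cut6 had 0.73 without array 1 and -0.29 without array 2. With the authors' deposited values 0 of 7 members, 0 of 22 other vitamin genes and 0 of 4811 genes passed in limma, against 5, 11 and 1372 here, and 5, 14 and 1784 had an unadjusted p under 0.05. With the sign of array 1 turned, as the labelled dye swap would need if channels were dyes, 0 of 7, 0 of 23 and 0 of 4854 passed, and 0, 0 and 6 had an unadjusted p under 0.05. The ratios that then changed sign were those of snz1 (0.10), sno1 (0.14), pdc102 (-0.30), pdc201 (0.18), thi5 (0.12), ilv1 (0.32), pda1 (0.16), pdb1 (0.22), pyr1 (0.36), tnr3 (-0.0002), bpl1 (-0.013), pdx3 (0.10), SPAC6F6.11c (0.20) and the car1 probe (0.12). Signal over background limits thi2, and saturation limits nmt1. The ratio within each array already pairs the cultures, and no other pairing was fitted.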
